A study of Mus musculus with 67 samples.

Results

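Serum response factor, myocardin, LIM genes and actin-associated genes were described in 67 single aortic smooth muscle cells in culture. The set was named by gene function and held Srf, Myocd, 3 four-and-a-half-LIM genes (Fhl1, Fhl2 and Fhl3), the cysteine-rich LIM genes Csrp1 and Csrp2, and the actin-associated genes Lmod1, Smtn and Synpo2. The deposited matrix lists 39179 gene rows, and 20000 of them were detected in 1 cell or more. A filter on low values, which asked in either passage for a mean of 10 or more and detection in 25% or more of the cells, kept 8682 genes. It kept 9 of the 10 genes of the set, and Fhl3 did not pass it. Every gene of the set is described here, whether or not it passed.

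Vascular smooth muscle cells came from the descending aorta of male C57Bl6 mice aged 3 to 4 months. All grew in medium with 10% serum and 1% antibiotic, and passage 2 cells were obtained by trypsin treatment and replating of passage 1 cells after 5 days in the plate. Cells were captured on a microfluidic system, each giving 1 library, with 45 libraries at passage 2 and 22 at passage 1. No label ties a cell to an animal or a culture dish, which makes each passage a single sample, and no test between them was made. SDs below are the spread between cells. All passage 2 libraries carry another label prefix than all passage 1 libraries, so passage and library set cannot be told apart.

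Serum response factor (SRF) is a transcription factor that binds a short element called the CArG box in the promoters of muscle, cytoskeletal and growth-response genes. Myocardin, encoded by Myocd, and the related MRTF proteins are coactivators that bind SRF and turn on contractile genes such as Acta2, the smooth muscle actin gene, and Myh11, which encodes smooth muscle myosin heavy chain and marks differentiated smooth muscle. LIM proteins of the FHL and CSRP families carry zinc-binding LIM domains, are found both at actin structures and in the nucleus, and have been described as partners of SRF.

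Promoter sequences are shown for the genes whose start lies close to a CArG box, since that element is what SRF binds. RefSeq promoters of the GRCm38.p6 build, 250 bases before to 50 bases after each start, were found for 8 of the 10 genes, as 11 promoters. Myocd, Csrp2 and Myh11 had no entry. The full CArG box was searched by its consensus, which reads the same on both strands, and no other motif was searched. Of 32851 promoters in that table, 535 (1.63%) held a full box, and 6 held 2 or more. Among the 11 promoters, 4 held a full box, those of Srf, of the first Fhl1 start and of both Fhl2 starts. The 120 bases before each of these starts are given 5′ to 3′ on the transcribed strand, with the full boxes in capitals. For Acta2 the capitals mark 2 boxes that depart from the consensus at 1 base, a looser pattern found in 21.1% of all promoters.
Srf (chr17:46556163-46556282, minus strand): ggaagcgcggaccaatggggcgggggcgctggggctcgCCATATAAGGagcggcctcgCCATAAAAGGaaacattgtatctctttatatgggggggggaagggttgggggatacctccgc
Fhl1, first start (chrX:56779563-56779682, plus strand): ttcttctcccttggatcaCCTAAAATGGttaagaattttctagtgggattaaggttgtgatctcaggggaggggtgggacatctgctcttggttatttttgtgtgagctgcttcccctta
Fhl2, first start (chr1:43196762-43196881, minus strand): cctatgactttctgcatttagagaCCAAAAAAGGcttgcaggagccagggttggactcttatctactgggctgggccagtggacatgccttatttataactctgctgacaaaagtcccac
Fhl2, second start (chr1:43163962-43164081, minus strand): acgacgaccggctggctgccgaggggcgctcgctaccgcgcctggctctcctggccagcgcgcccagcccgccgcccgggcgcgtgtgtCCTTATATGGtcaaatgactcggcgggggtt
Acta2 (chr19:34255374-34255493, minus strand): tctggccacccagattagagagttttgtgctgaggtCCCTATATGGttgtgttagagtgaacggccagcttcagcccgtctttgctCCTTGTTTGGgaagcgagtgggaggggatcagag

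The Srf promoter held full boxes beginning 82 and 62 bases upstream of its start. In the first Fhl1 promoter the box began 102 bases upstream of a RefSeq start whose transcribed bases were not found in a GENCODE M21 transcript, and in the Fhl2 promoters 96 bases and 31 bases upstream. Both Acta2 boxes, 84 and 34 bases upstream, had 1 departure each. No full box was found in the second Fhl1 promoter or in those of Fhl3, Csrp1, Lmod1, Smtn and Synpo2, which says only that the letters are not in these windows. Boxes with at most 1 departure numbered 3 in the Srf promoter, 3 in the first Fhl1 promoter, 1 in each Fhl2 promoter and 2 in that of Lmod1, as in that of Acta2, and 0 in the others; those with a departure are not capitalised outside Acta2. A match is a description of the sequence and not a measurement of binding.

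Passage 2 libraries held 548419 to 1509589 reads and passage 1 libraries 817021 to 1561129. The median number of genes detected was 7257 in passage 2 cells and 8477.5 in passage 1 cells, and for that reason shares of cells are given at a normalized count of at least 10 rather than at any read. At least 3 of 10 smooth muscle markers (Smtn and Lmod1 among them) reached 10 in 45 of 45 passage 2 cells and in 20 of 22 passage 1 cells, although Des was at 0 in every passage 1 cell. At least 3 of 10 endothelial markers reached 10 in 2 of 45 passage 2 cells and in 5 of 22 passage 1 cells, and the defining marker Cldn5 was at 0 in all cells. Every cell with 3 or more endothelial markers at 10 also had 3 or more smooth muscle markers at 10. The smooth muscle count therefore does not set smooth muscle cells apart. Within that list Myh11 reached 10 in 18 passage 2 and 2 passage 1 cells, and Cnn1 in 8 and 2. The summed endothelial level spanned 0 to 7293 at passage 2 and 1.27 to 6082 at passage 1. Mki67 or Top2a, which mark dividing cells, reached 10 in 10 of 45 passage 2 cells and in 16 of 22 passage 1 cells. Of 8 macrophage markers, Ptprc, Adgre1, Fcgr1 and Mrc1 were at 0 in all cells, whereas Csf1r reached 10 in 15.6% of passage 2 cells and 40.9% of passage 1 cells, and Cd68 in 3 cells of each passage. The summed macrophage level spanned 0 to 295 at passage 2 and 0 to 150 at passage 1. Among 23 lymphocyte, erythroid and striated muscle markers, the highest share of cells at 10 was 8.89% at passage 2 (Lck) and 9.09% at passage 1 (Lck and Mb), which is the background set for the shares below. Csf1r is not among those 23 and had a higher share than they did. Its share was above that of Srf, Csrp1, Lmod1, Synpo2, Myocd and Fhl3 at passage 1 and above that of Fhl3 and Synpo2 at passage 2.

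All 10 genes had a higher mean normalized count at passage 2 than at passage 1, against 45.3% of all genes kept. Those at least 2-fold higher numbered 5 (Fhl1, Fhl2, Fhl3, Lmod1 and Synpo2), against 14.4% of all genes kept, and 0 were at least 2-fold lower, against 19.4%. The median log2 ratio (passage 2 over passage 1, of means plus 1) of the 10 genes was 0.98, beside -0.11 over all genes kept. Of the 9 genes of the set that passed the filter, 9 were higher, 4 at least 2-fold, with a median of 0.94. Srf and Csrp1 (passage 1 means of 9.90 and 5.33) and Myocd (a read in 13.6% of passage 1 cells) passed through passage 2 alone. For these genes the filter itself favours a higher passage 2 value. Scaling by TMM (trimmed mean of M-values) factors placed the all-gene median at -0.00 and the median of the 10 at 1.02, and the direction of every gene's ratio was the same under it. Setting aside the cells with Mki67 or Top2a at 10 left 35 passage 2 and 6 passage 1 cells. The 6 include passage 1 cells 11 and 14, which are endothelial marker cells. In the cells left the median of the 10 genes was 1.80 and that of all genes 0.02. Without the endothelial marker cells the median of the 10 was 1.01.

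Markers of other cell types also differed between the passages. Of 6 pericyte markers 5 were higher at passage 2, 3 of them at least 2-fold, and their summed level spanned 25.02 to 46438 at passage 2 and 14.8 to 2445 at passage 1. Rgs5 averaged 7608 ± 10752 at passage 2 and 200.1 ± 426 at passage 1 (log2 ratio 5.24), and Notch3 had a log2 ratio of 3.61. Of 6 endothelial markers kept 5 were at least 2-fold lower at passage 2, and of 7 fibroblast markers kept 3 were higher and 4 lower. The part of the pericyte and fibroblast markers in the ratios of the 10 genes was not tested.

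**Figure D1:**
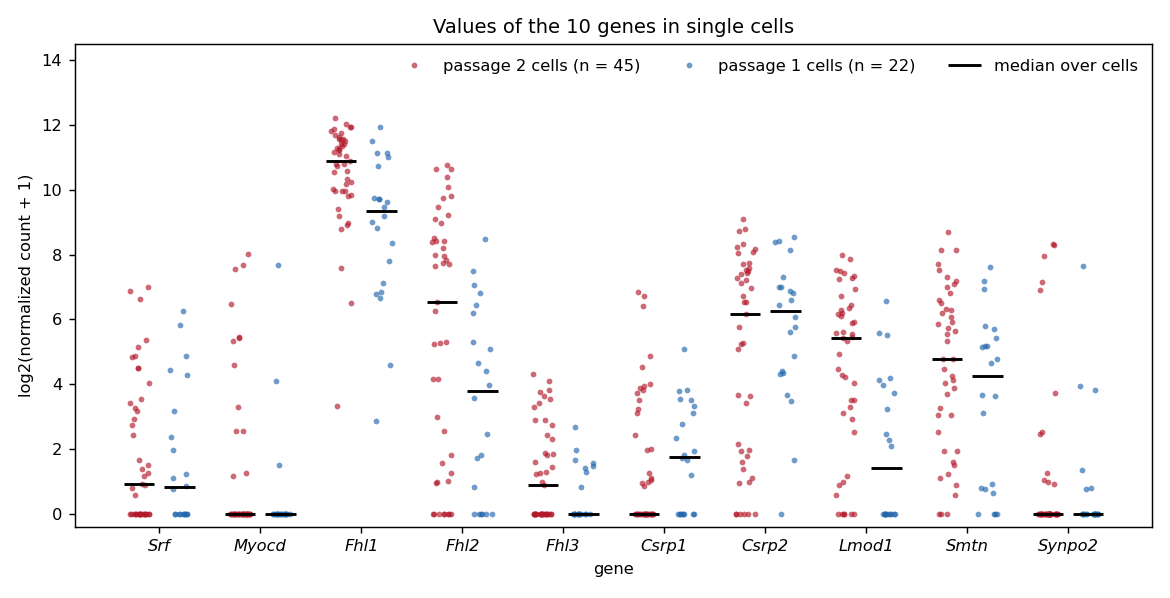
Values of the 10 genes in each cell as log2(normalized count + 1), passage 2 cells (n = 45) left of passage 1 cells (n = 22) for each gene, with bars at the medians. Fhl1 was high in nearly all cells, and Fhl2, Lmod1, Csrp2 and Smtn spread from 0 to values below the Fhl1 maximum. Myocd and Synpo2 were at 0 in most cells of both passages.

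Per kilobase of annotated exon, mean levels ordered the genes from Fhl1 to Fhl3 in both passages. At passage 2 the normalized counts per kilobase were 542 for Fhl1, 174 for Fhl2, 54.3 for Csrp2, 15.3 for Smtn, 15.2 for Lmod1, 5.27 for Csrp1, 4.57 for Srf, 3.13 for Myocd, 1.98 for Synpo2 and 1.93 for Fhl3. The passage 1 order was Fhl1 at 266, Csrp2 at 50.95, Fhl2 at 26.2, Smtn at 8.27, Srf at 3.42, Lmod1 at 3.07, Csrp1 at 2.73, Myocd at 1.56, Synpo2 at 0.806 and Fhl3 at 0.488. Only Fhl1 and Fhl2 at passage 2 stood further apart than the larger of their SDs between cells (333 and 253 per kilobase); all other neighbours in both orders did not. By the same measure Acta2 averaged 1805 per kilobase at passage 2 and 375 at passage 1, and Myh11 averaged 6.30 at passage 2 and 1.59 at passage 1, so the levels of Srf and Myocd lay nearer to that of Myh11 than to that of Acta2.

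Srf (chr17:46548329-46556175, minus strand; gene coordinates here and below are those of GENCODE M21 on GRCm38), the transcription factor itself, was low in most cells. Its normalized counts ran from 0 through a median of 0.892 to 126 at passage 2 and from 0 through a median of 0.768 to 75.5 at passage 1. The passages overlapped over nearly the whole range, and a few cells held most of the signal: the 3 highest cells carried 57.2% of the passage 2 sum and 73.2% of the passage 1 sum. A count of at least 10 was reached in 11 of the 45 cells of passage 2 (24.4%, with a Clopper-Pearson 95% interval of 12.9 to 39.5) and in 5 of the 22 of passage 1 (22.7%, 7.82 to 45.4). Means were 13.2 ± 29.05 at passage 2 and 9.90 ± 19.9 at passage 1 (SD over 45 and 22 cells), a log2 ratio of 0.38, and 43.3% of all cell pairs had the higher value at passage 2 with 19.2% tied. With any 1 cell left out the ratio of Srf ranged from 0.095 to 0.87. Without the cells with Mki67 or Top2a it was 1.63, a value that rests on 6 passage 1 cells. The cells set aside include the 3 highest passage 1 cells.

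Myocd (chr11:65176561-65269989, minus strand), the coactivator myocardin, was rarely detected. The highest count was 260 at passage 2 and 202 at passage 1, and the lowest value and the median were 0 in both. It reached 10 in 8 of the 45 cells of passage 2 (17.8%, 8.002 to 32.1) and in 2 of the 22 of passage 1 (9.09%, 1.12 to 29.2), the passage 1 share being no higher than that of the highest unrelated marker. The passage 1 mean came almost wholly from cell 14, a cell with endothelial markers, which held 91.8% of the sum. Means were 20.1 ± 56.3 at passage 2 and 10.0 ± 43.02 at passage 1, a log2 ratio of 0.94 that became 3.51 without passage 1 cell 14. The same ratio was 3.42 without the endothelial marker cells and -1.50 without the Mki67 or Top2a cells, a setting that keeps passage 1 cell 14. Neither its direction nor its size was thus stable to which cells were counted.

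Among the FHL genes, Fhl1 (chrX:56731787-56793346, plus strand), which encodes an adaptor of the actin cytoskeleton, was the most abundant of the 10. Normalized counts ran from 9.06 through a median of 1887 to 4764 at passage 2 and from 6.25 through a median of 649 to 3948 at passage 1. Cells of both passages spanned almost the same range, but the middle of the distribution was higher at passage 2, where 75.9% of cell pairs had the higher value. Means were 2013 ± 1236 at passage 2 and 988 ± 1070 at passage 1, a log2 ratio of 1.03 that kept within 0.96 to 1.25 with any 1 cell left out. It was 0.90 with reads scaled to the library total, 0.90 after thinning every cell to 500000 reads and 0.84 without the Mki67 or Top2a cells, all below the 2-fold mark.

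Fhl2 (chr1:43123074-43196984, minus strand), an SRF-binding LIM protein in earlier work, had the largest ratio of the set. Its counts ran from 0 through a median of 91.2 to 1747 at passage 2 and from 0 through a median of 12.9 to 358 at passage 1. Low values were common in both passages, and the highest values were those of passage 2 cells. Fhl2 reached 10 in 29 of the 45 cells of passage 2 (64.4%, 48.8 to 78.1) and in 12 of the 22 of passage 1 (54.5%, 32.2 to 75.6), and reached 100 in 22 passage 2 cells and 4 passage 1 cells. Means were 330 ± 479 at passage 2 and 49.7 ± 85.3 at passage 1, a log2 ratio of 2.71 (2.56 to 3.198 with any 1 cell left out). The passages stood further apart in the number of cells at 100 than in the number at 10.

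Fhl3 (chr4:124700701-124708611, plus strand), the least abundant of the family, did not pass the filter. Counts ran from 0 through a median of 0.861 to 19.002 at passage 2 and from 0 through a median of 0 to 5.46 at passage 1. It reached 10 in 6 of the 45 cells of passage 2 (13.3%, 5.05 to 26.8) and in 0 of the 22 of passage 1, where the exact interval allows a share of up to 15.4%. Means were 3.24 ± 4.96 at passage 2 and 0.821 ± 1.38 at passage 1, and rest on 138 reads at passage 2 and 26 at passage 1. Relative to all reads of each passage that is a ratio of 3.39 (exact 95% interval 2.22 to 5.37, counting error only). The log2 ratio of 1.22 was 0.29 with a pseudocount of 10.

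Csrp1 (chr1:135720061-135752232, plus strand) encodes a LIM protein that binds the actin crosslinker alpha-actinin. Its counts ran from 0 through a median of 0 to 114 at passage 2 and from 0 through a median of 2.40 to 32.8 at passage 1. The typical cell was thus lower at passage 2 while the few highest cells were passage 2 cells, and 3 of them carried 65.1% of the passage 2 sum. It reached 10 in 11 of the 45 cells of passage 2 (24.4%) and in 5 of the 22 of passage 1 (22.7%), with the same intervals as Srf. Means were 10.3 ± 25.5 at passage 2 and 5.33 ± 7.62 at passage 1, a log2 ratio of 0.84 that turned to -0.22 with means of log2 values and -1.77 with medians, where the all-gene medians were -0.62 and -0.60. Without the Mki67 or Top2a cells, which include the highest passage 1 cell, it was 2.00, a value that rests on 6 passage 1 cells.

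Csrp2 (chr10:110919789-110939622, plus strand), a LIM gene known from arterial smooth muscle, hardly differed in mean. Counts ran from 0 through a median of 70.4 to 553 at passage 2 and from 0 through a median of 76.2 to 373 at passage 1. What differed was the number of low cells: Csrp2 reached 10 in 29 of the 45 cells of passage 2 (64.4%, 48.8 to 78.1) and in 20 of the 22 of passage 1 (90.9%, 70.8 to 98.9). Means were 118 ± 138 at passage 2 and 111 ± 118 at passage 1, a log2 ratio of 0.09 that ranged from -0.04 to 0.26 with 1 cell left out and was -0.81 with means of log2 values. Its summed reads per library read gave a ratio of 1.03 (0.986 to 1.08, counting error only). Csrp2 was the one gene of the 10 with a smaller share of cells at 10 at passage 2 than at passage 1 by over 1 percentage point.

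Lmod1 (chr1:135324807-135368065, plus strand), leiomodin 1, a nucleator of actin filaments in smooth muscle, differed in both level and share. Its counts ran from 0 through a median of 41.6 to 251 at passage 2 and from 0 through a median of 1.65 to 93.7 at passage 1. All passage 1 values lay below the passage 2 maximum and the ranges overlapped, but 73.8% of cell pairs were higher at passage 2. It reached 10 in 31 of the 45 cells of passage 2 (68.9%, 53.4 to 81.8) and in 7 of the 22 of passage 1 (31.8%, 13.9 to 54.9). Means were 60.0 ± 68.0 at passage 2 and 12.1 ± 22.7 at passage 1, a log2 ratio of 2.22 (2.11 to 2.73 with any 1 cell left out) that was 4.01 with medians over cells.

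Smtn (chr11:3517523-3540612, minus strand), which encodes smoothelin, an actin-filament protein of contractile smooth muscle, ran from 0 through a median of 26.5 to 418 at passage 2 and from 0 through a median of 17.9 to 195 at passage 1. The passages overlapped broadly, with the highest values at passage 2. It reached 10 in 30 of the 45 cells of passage 2 (66.7%) and in 13 of the 22 of passage 1 (59.1%). Means were 67.1 ± 89.999 at passage 2 and 36.2 ± 52.1 at passage 1, a log2 ratio of 0.87. The ratio was 1.97 without the Mki67 or Top2a cells, which include the 3 highest passage 1 cells, with 57.7% of the passage 1 sum. Exons of Smtn overlap those of Gm11946 on the opposite strand, which averaged 3.13 over all cells, and because the handling of strand is not given in the sources used here the reads of the 2 genes cannot be told apart there.

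Synpo2 (chr3:123076519-123236149, minus strand), synaptopodin 2, an actin-binding protein of muscle, was present in few cells at high level. The highest count was 319 at passage 2 and 201 at passage 1, and again the lowest value and the median were 0 in both, so the passages overlapped. It reached 10 in 6 of the 45 cells of passage 2 (13.3%) and in 3 of the 22 of passage 1 (13.6%). Means were 25.9 ± 77.5 at passage 2 and 10.6 ± 42.8 at passage 1, a log2 ratio of 1.22 that was 3.44 without passage 1 cell 9, which held 86.7% of the passage 1 sum, and 0.31 with means of log2 values. Without the Mki67 or Top2a cells, which include passage 1 cell 9, it was 3.24, a value that rests on 6 passage 1 cells.

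**Figure D2:**
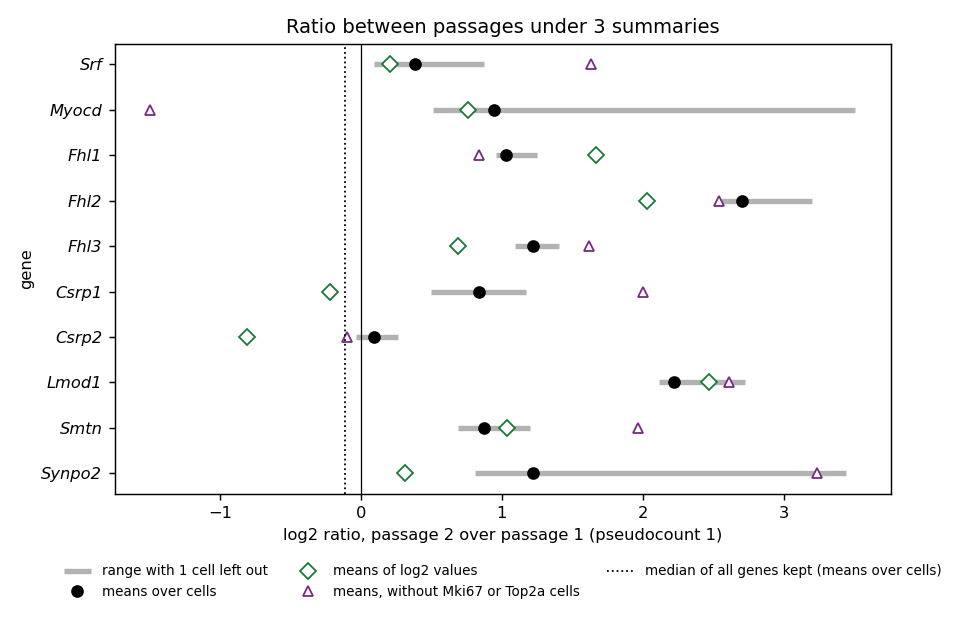
Log2 ratio of passage 2 over passage 1 for each gene from means over cells (filled circles, with a bar for the range with any 1 cell left out), from means of log2 values (diamonds) and from means without the Mki67 or Top2a cells (triangles). The dotted line marks the median of all genes kept, -0.11. Fhl2 and Lmod1 stayed above 2 under all 3 summaries, while Csrp1, Csrp2 and Myocd had points on both sides of 0.

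A cell had between 1 and 8 of the 10 genes at 10 or more in each passage, with a median of 4 in both. At least 5 genes reached 10 in 20 of 45 passage 2 cells and in 7 of 22 passage 1 cells. Cells 4, 22 and 24 of passage 2 and cell 17 of passage 1 had 8 genes. Myh11 stood at 10.4, 13.2 and 21.4 normalized counts in those 3 passage 2 cells. Passage 1 cells 9 and 17, with 7 and 8 genes at 10, were the only passage 1 cells with Myh11 at 10. They had 197 and 64.8 normalized counts of Myh11 and 4826 and 2843 of Acta2. Passage 1 cell 6 also had 7 genes at 10, with Myh11 at 0 and Acta2 at 1572.

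**Figure D3:**
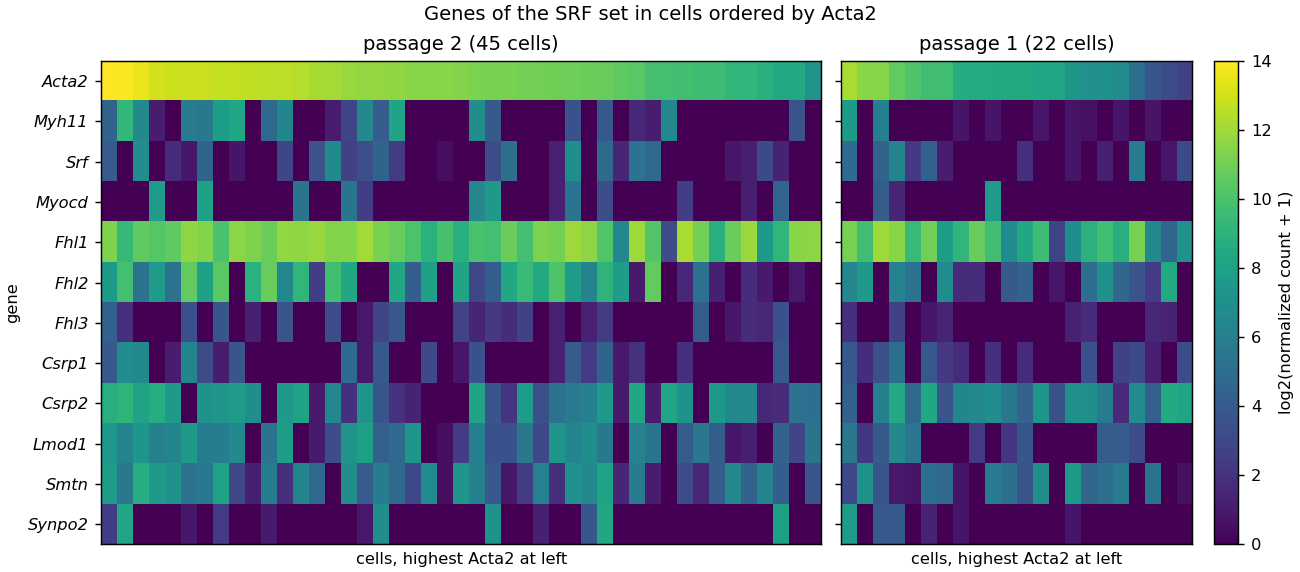
Heat map of log2(normalized count + 1) of Acta2, Myh11 and the 10 genes, with cells as columns ordered from the highest to the lowest Acta2 within passage 2 (left) and passage 1 (right). Lmod1, Smtn, Csrp1 and Myh11 values were more frequent toward the Acta2-high end of passage 2, and Myocd and Synpo2 appeared in scattered cells.

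The relation to Acta2 and Myh11 was described by Spearman's rho across the cells of each passage, set beside the rho of all genes kept with the same gene. Cells of a passage share the library set and the size-factor scaling, and rho across them is a description with no test. Acta2 shares near-identical coding sequence with other actin genes, and the handling of reads that map to several places is not given in the sources used here. Acta2 averaged 3965 ± 3903 at passage 2 (153 to 17576) and 824 ± 1221 at passage 1 (5.67 to 4826). Myh11 reached 10 in 18 of 45 passage 2 cells and in 2 of 22 passage 1 cells, so its relations at passage 1 rest on few cells.

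Across the 45 passage 2 cells, 5 of the 10 genes had a rho with Acta2 above the 95th percentile of all genes kept, a mark that 5% of genes pass by construction. These were Lmod1 (0.42), Fhl2 (0.41), Smtn (0.33), Csrp1 (0.32) and Csrp2 (0.27), where the median of all genes was -0.02 and the middle 90% ran from -0.28 to 0.26. The coactivator and the factor themselves stood inside that range, with Srf at 0.11 and Myocd at -0.00, as did Fhl1 (0.10), Fhl3 (0.08) and Synpo2 (0.17). Myh11 itself had a rho of 0.48 with Acta2. Without the 2 cells farthest from the median of Acta2 the values were 0.36 for Lmod1, 0.40 for Fhl2, 0.30 for Smtn, 0.23 for Csrp1 and 0.16 for Csrp2.

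Myh11 in the same passage 2 cells gave 4 of the 10 above the 95th percentile, again against 5%. Lmod1 had the highest rho (0.48), followed by Csrp1 (0.42), Csrp2 (0.40) and Synpo2 (0.32), where the middle 90% of all genes ran from -0.25 to 0.24. Srf (0.23), Fhl3 (0.19), Smtn (0.15), Myocd (0.10), Fhl2 (0.09) and Fhl1 (0.08) lay inside it. In the 18 cells with Myh11 at 10, Fhl1 also reached 10 in 17, Lmod1 in 16, Csrp2 in 15, Smtn in 14 and Fhl2 in 12. Csrp1 did so in 9, Srf in 6, and Myocd, Fhl3 and Synpo2 in 4 each. In the other 27 passage 2 cells, Fhl1 reached 10 in 27, Fhl2 in 17, Smtn in 16, Lmod1 in 15 and Csrp2 in 14. There Srf did so in 5, Myocd in 4, and Csrp1, Fhl3 and Synpo2 in 2 each. Without the 2 cells farthest from the Myh11 median the rho values were 0.46 for Lmod1, 0.34 for Csrp1, 0.32 for Csrp2 and 0.29 for Synpo2.

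Across the 22 passage 1 cells, 4 of the 10 genes had a rho with Acta2 above the 95th percentile (0.32), against 5% of all genes: Fhl1 (0.59), Synpo2 (0.57), Lmod1 (0.40) and Myocd (0.35). The last rests on 3 cells with a read of Myocd and Synpo2 on 6, and both are sparse counts. Csrp2 had a rho of -0.21 there and Fhl2 one of 0.11, both within the middle 90% of all genes. With Myh11, which had a read in 9 of the 22 cells, 2 genes lay above the 95th percentile, again against 5%, namely Synpo2 (0.43) and Smtn (0.39), with Myh11 sparse. Smtn had 0.07 by Pearson correlation of log2 values and 0.06 after thinning. Without cells 9 and 17, the 2 farthest from the median, Synpo2 had 0.15 and Smtn 0.54, but no cell left then had Myh11 above 0.776. Over all cells Lmod1 was above the mark with Acta2 in both passages, Fhl1 at passage 1 and Fhl2 at passage 2. Without the 2 passage 1 cells farthest from the Acta2 median, Lmod1 had 0.30, Fhl1 0.54, Synpo2 0.58 and Myocd 0.48. After dropping the 25% of passage 1 cells lowest in genes detected, they had 0.24, 0.40, 0.42 and 0.36. With Myh11 at passage 1, Lmod1 had a rho of -0.03 and Acta2 one of 0.13. The difference in rho between passages was not tested. The number of genes detected per cell had a rho of -0.25 with Acta2 at passage 2 and -0.42 at passage 1, and its part in these relations was not tested.

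**Figure D4:**
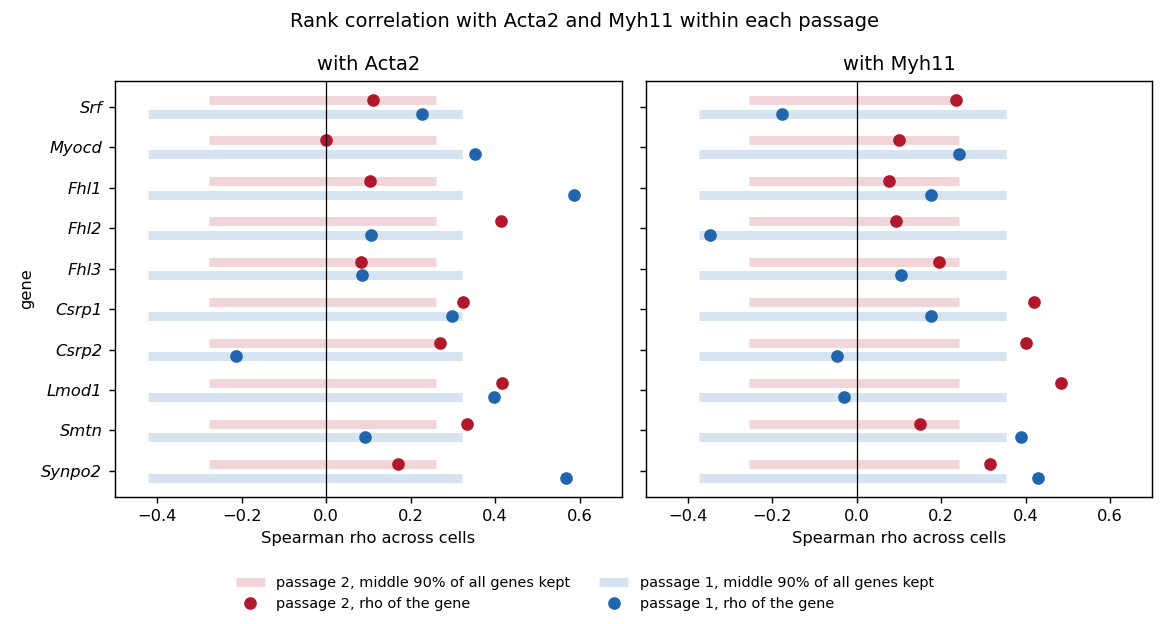
Spearman rho of each gene with Acta2 (left panel) and Myh11 (right panel) across passage 2 cells (red, upper) and passage 1 cells (blue, lower), with pale bars for the middle 90% of all genes kept. With Myh11 at passage 2, Lmod1, Csrp1 and Csrp2 stood farthest right (0.48, 0.42 and 0.40), and Srf and Myocd stayed inside the bars there.

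Among the 10 genes themselves, the 45 gene pairs had a median rho of 0.14 at passage 2 (-0.10 to 0.53, 36 pairs above 0). At passage 1 it was 0.20 (-0.37 to 0.58, 30 pairs above 0). No value over all gene pairs was computed, so these counts have no background beside them. With the 5882 genes ranked below, Fhl1, Fhl2, Csrp2, Lmod1 and Smtn had median rho values of 0.02 to 0.04 at passage 2. The highest passage 2 pair was Csrp1 with Lmod1, at 0.53, and all 11 cells with Csrp1 at 10 also had Lmod1 at 10. Csrp1 with Smtn followed at 0.50, with Smtn at 10 in 10 of those 11 cells. At passage 1 the highest pair was Fhl1 with Lmod1, at 0.58.

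**Figure D5:**
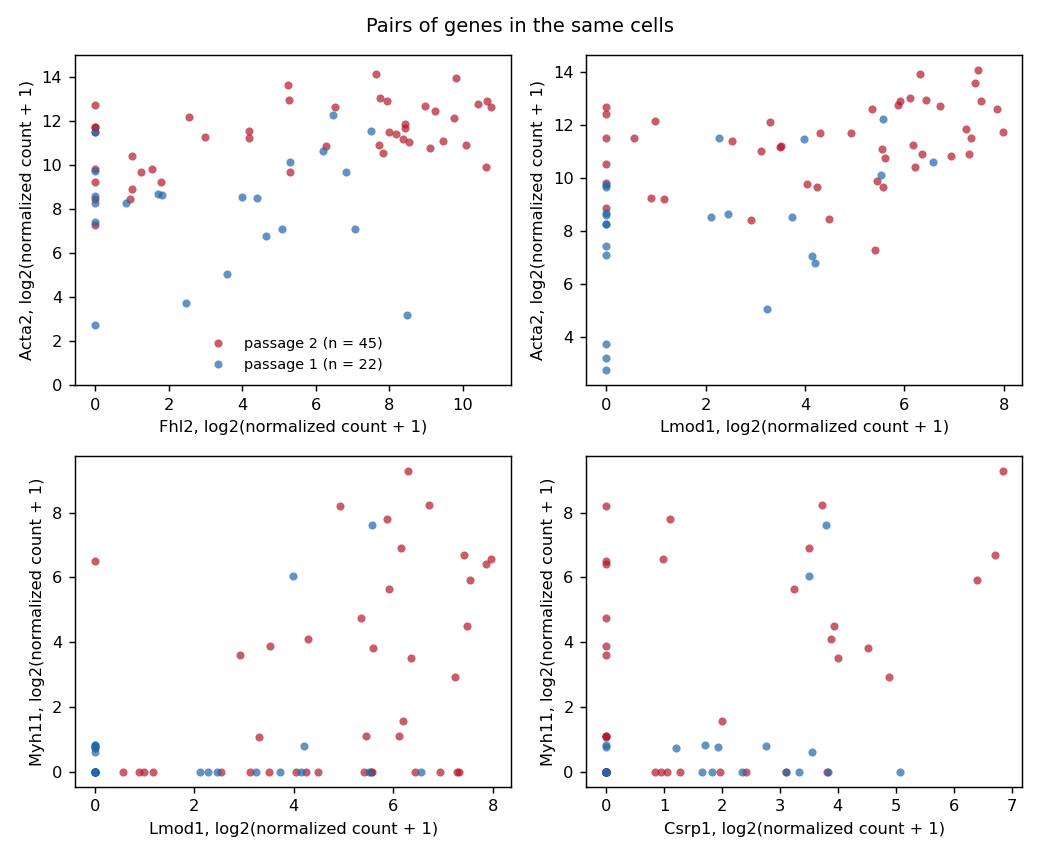
Values in the same cells as log2(normalized count + 1): Fhl2 and Lmod1 against Acta2 (upper panels), and Lmod1 and Csrp1 against Myh11 (lower panels), with passage 2 cells in red (n = 45) and passage 1 cells in blue (n = 22). Of the 18 passage 2 cells with Myh11 at 10, 16 had Lmod1 and 9 had Csrp1 at 10. Of the other 27 passage 2 cells, 15 had Lmod1 and 2 had Csrp1 at 10.

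For the genes of the set that reached 10 in at least 50% of passage 2 cells, the genes most like them were found by rho across those 45 cells, among 5882 genes. Fhl1 was closest to Ldhb (0.61), Itgb5 (0.58) and Tgfb2 (0.58), with passage 1 values of 0.32, 0.14 and 0.58. Fhl2 was closest to Rock2 (0.64), Egr1 (0.63) and Epha3 (0.63), with passage 1 values of 0.20, 0.22 and 0.24. Lmod1 was closest to Gm16755 (0.55), Gm4540 (0.52) and Zbtb7a (0.51), with passage 1 values of 0.03, -0.05 and -0.00. Csrp2 was closest to Mettl14 (0.53), Fam104a (0.52) and Kidins220 (0.50), with passage 1 values of -0.02, 0.20 and -0.07. Smtn was closest to Tm9sf4 (0.51), Eef1d (0.51) and Fam13c (0.50), with passage 1 values of -0.10, 0.14 and 0.61.

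Genes around the set were followed in lists of related function. Of 17 MRTF, ternary complex and other SRF partners 10 were kept, with 5 higher and 5 lower at passage 2, 0 past 2-fold and a median log2 ratio of -0.00. Mrtfb, a coactivator related to myocardin, had the highest ratio among them (0.84, with means of 198 ± 184 at passage 2 and 110 ± 92.5 at passage 1), Yy1 the lowest (-0.91), and Tead1 the highest mean (246 ± 167 at passage 2 and 140 ± 156 at passage 1).

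Most genes kept from 2 chosen lists of SRF targets were higher at passage 2. Over all genes kept the median log2 ratio was -0.11, with 45.3% higher and 14.4% at least 2-fold higher. Of 20 contractile targets outside the set, Acta2 and Myh11 among them, 17 were kept. At passage 2, 16 of these were higher and 1 lower, 12 were at least 2-fold higher, and the median log2 ratio was 1.42. Cnn1, with a passage 1 mean of 3.61, passed the filter through passage 2 alone. Itga8, an integrin subunit, was highest at 3.18, and Actg2, the gamma smooth muscle actin gene, was lowest at -1.33 (13.9 ± 51.9 at passage 2 and 36.4 ± 104 at passage 1). Of 13 early response targets 12 were kept and all 12 were higher, 10 at least 2-fold, with a median of 1.62. Among these Dusp1, a phosphatase gene, had the highest ratio (2.37), Egr2 the lowest (0.58) and Egr1 the highest mean (2369 ± 1843 at passage 2 and 1367 ± 1246 at passage 1).

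Paralogs of the set and other LIM genes showed no single direction. Of 18 paralogs, with Myocd, Mrtfa and Mrtfb among them, 8 were kept, 5 higher and 3 lower, with 1 at least 2-fold higher, 2 at least 2-fold lower and a median of 0.38, from the LIM gene Crip1 (1.36) to the tropomodulin gene Tmod3 (-1.41), and Crip2 had the highest mean (427 ± 322 at passage 2 and 395 ± 202 at passage 1). Csrp3, Fhl5, Lmod2, Smtnl1 and Crip3 were at 0 in every cell. Of 19 other LIM genes 16 were kept, 10 higher and 6 lower, 2 at least 2-fold higher and 3 at least 2-fold lower, with a median of 0.28, shares close to the 14.4% and 19.4% of all genes kept. Pdlim1 was highest at 1.34, Ablim1 lowest at -1.19, and Lpp, a focal adhesion gene, had the highest mean (966 ± 694 at passage 2 and 675 ± 579 at passage 1).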

How the data were processed

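Single-cell RNA libraries of 67 cultured aortic smooth muscle cells were analysed from 1 deposited table. The submitters' processing notes name GRCm38, BWA, HTSeq, SAMtools and DESeq, and versions are not given in the sources used here. The deposited signal values are counts per gene scaled by the authors with a size factor for each cell. Dividing each column by its smallest step gave whole reads for 100% of 509576 values above 0 (within 0.001 of a whole number, largest distance 1.87e-05). In 2 passage 2 cells that step lies close to 1, so whole values say little there. Gene symbols came from GENCODE M21, which names 37607 of 39179 gene rows. No count test was run on the reads, since no label ties cells to an animal or culture and each passage is therefore 1 sample.

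Genes were kept where, in either passage, the mean was 10 or more and 25% or more of the cells had a read. Ratios are differences of log2(mean + 1), passage 2 minus passage 1, and are too small for genes with low values. Clopper-Pearson 95% intervals are given for shares of cells, and exact binomial ones for ratios of summed reads. Intervals of shares cover sampling of cells within these libraries, and those of reads cover counting error only, since reads without molecular identifiers are not independent molecules. Relations across cells are Spearman correlations within a passage. Replicate numbers follow accession order and only name cells. No doublet caller was run on 67 cells.

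The genes, lists and comparisons were chosen with earlier results of these data known. Named genes were the 10 genes, Acta2, Myh11, the highest mean and the highest and lowest ratio of each list, and the 3 genes with the highest rho with each gene that reached 10 in at least 50% of passage 2 cells. Scripts were tested on simulated data. The software was matplotlib 3.10.9, scipy 1.17.1, pandas 2.3.3, numpy 2.4.6 and Python 3.11.15, and edgeR 4.0.16 in R 4.3.3 for TMM factors alone. 1 further gene list is not reported here, and traction force measurements were not analysed here.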

Additional observations from a re-analysis of the deposited data

How the results depend on the processing

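The median log2 ratio of the 10 genes stayed above 0 under every alternative. It was 0.66 with a pseudocount of 10, 0.87 with reads scaled to the library total, 0.86 with cells thinned to 500000 reads, 0.73 with means of log2 values, 0.32 with medians over cells, 1.23 after dropping the 25% of cells of each passage lowest in genes detected, and 1.80 without the Mki67 or Top2a cells. With 1 cell left out it ranged from 0.88 to 1.17. The count of genes at least 2-fold higher, 5 in the report, was 3 with a pseudocount of 10, with medians and after thinning, and 4 to 6 with 1 cell left out. Ratios turned negative for Myocd without the Mki67 or Top2a cells (-1.50), for Csrp1 with medians (-1.77) and means of log2 values (-0.22), and for Csrp2 with medians (-0.11), means of log2 values (-0.81), without the Mki67 or Top2a cells (-0.10) and with 1 cell left out, passage 2 cell 24 or 38 (range -0.035 to 0.26). The all-gene median was 0.0046 with no filter and 0.015 without the Mki67 or Top2a cells; the all-gene values under the settings of the 10 genes were added after seeing the data. The partner list median turned to 0.0014 with a pseudocount of 10 and 0.052 with TMM. The median rho of the 10 genes with Myh11 at passage 1 was 0.30 by Pearson, 0.34 without the Mki67 or Top2a cells, -0.011 without the 2 farthest cells and -0.21 after dropping the cells lowest in genes detected. The cause was not tested in any of these. No paired analysis was possible because the passages share no numbered animals or cultures. Depth limits Fhl3, which after thinning had a read in 18 passage 2 and 5 passage 1 cells, against 23 and 8 at full depth; the means of Myocd, Synpo2 and Csrp1 rest on few cells.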
